A study of Homo sapiens with 6 samples.

Results

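Transcripts of 10 genes that report on the mitogen-activated protein kinase (MAPK) pathway were measured in WM164 melanoma cells carrying a GFP control or a tethered dimer of MITF and MAFG (T-MGM). The genes were DUSP4, DUSP5, DUSP6, SPRY2, SPRY4, SPRED1, SPRED2, ETV4, ETV5 and PHLDA1, taken by name from the 58870 genes of the count table by a rule that uses no measured value, though earlier results of these data were known when the list was drawn up. WM164 is an established human melanoma line that expresses MITF and belongs to the BRAF-mutant class. The GFP group (replicates 1 to 3) and the T-MGM group (replicates 1 to 3) held 3 libraries each, which gives 6 in all. Both groups received a lentiviral vector with the EF1α promoter and blasticidin resistance. The T-MGM construct joins the cDNA of the melanocyte isoform of MITF to that of MAFG through a flexible linker. Nothing in the labels says whether the libraries of a group came from separate transductions or cultures, so p-values measure the spread between these libraries, which may be technical. No drug treatment is labelled, and ERK phosphorylation was not analysed here.

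In this pathway growth factor receptors load RAS with GTP, RAS recruits RAF kinases, and RAF activates MEK, which activates ERK. Active ERK switches on genes that turn the signal down again. These include dual-specificity phosphatases (DUSP), which remove phosphate from ERK, and the Sprouty (SPRY) and Sprouty-related (SPRED) proteins, which act upstream at the level of RAS and RAF. It also raises transcription factors of the PEA3 group (ETV1, ETV4 and ETV5). Because these transcripts follow ERK activity, they are widely read as an output signature in melanoma, where BRAF or NRAS mutations keep the pathway on.

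The GFP libraries held 35057239 to 38738065 counts each and the deeper T-MGM libraries 44577774 to 59250663, so counts were divided by DESeq2 size factors before any comparison. The 10 genes took 0.311% to 0.312% of all counts in GFP and 0.317% to 0.321% in T-MGM. Counts of mitochondrial genes made up 10.7% to 10.9% in GFP and 11.7% to 12% in T-MGM, and the part of this difference in the results was not tested. The 8 melanocytic markers were abundant in all libraries, with summed normalized counts of 117813 to 118472 in GFP and 110097 to 112948 in T-MGM. Of these, DCT, MLANA and TYR were lower in T-MGM (log2 fold changes -2.49, -0.68 and -0.35). MITF, SOX10 and PMEL were slightly higher (0.08, 0.11 and 0.05), and GPR143 and SLC45A2 were not past the test. PTPRC and CD3E of the immune markers, KRT5 and KRT1 of the keratinocyte markers and CDH5 of the endothelial markers never exceeded 3 counts. The summed normalized counts with GFP and with T-MGM were 1 to 7 and 4 to 8 for the immune list, 847 to 927 and 864 to 1019 for the keratinocyte list, and 20 to 35 and 35 to 49 for the endothelial list. The 5 fibroblast markers summed to 343 to 353 in GFP and 580 to 658 in T-MGM, mostly from LUM, and their part in the results was not tested. MITF (log2 fold change 0.08) and MAFG (-0.06, not past the test) moved little. By themselves the counts of these genes do not bear out the T-MGM label. GFP and T-MGM therefore stand throughout for the libraries labelled so, and every direction below is a direction between labels. AXL averaged 236 ± 13.4 with GFP against 1126 ± 80.4 with T-MGM (normalized counts, n = 3 per group, SD). The paper states that the dimer was expressed in WM164, and it reports by qRT-PCR that AXL was induced there.

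The first question was whether the 10 ERK outputs moved together in the libraries labelled T-MGM. They did not. DUSP5, SPRY4 and PHLDA1 rose (PHLDA1 was at -0.01 in the deposited TPM values), DUSP4 and SPRED1 fell (SPRED1 by less with GC content and length offsets), and DUSP6, SPRY2, SPRED2, ETV4 and ETV5 did not pass the test. All log2 fold changes compare T-MGM with GFP, so positive values mean higher in the libraries labelled T-MGM, and the threshold was an adjusted p of 0.05 in DESeq2. Thus 5 of 10 passed, against 38.4% of the 19135 genes tested (19.2% in each direction) and 73.4% of the 4247 genes that averaged 2000 or more normalized counts over the 6 libraries, a level that all 10 exceeded. None of the 10 changed over 2-fold, against 4.63% of all genes tested (3.26% higher and 1.36% lower). The median log2 fold change of the 10 was -0.003, as was that of all genes tested. For 7 of the 10 the normalized counts separated the groups without overlap, against 46.8% of all genes tested and 76.5% of those that averaged 2000 or more. The share of members that moved was therefore no larger than that of other abundant genes.

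**Figure D1:**
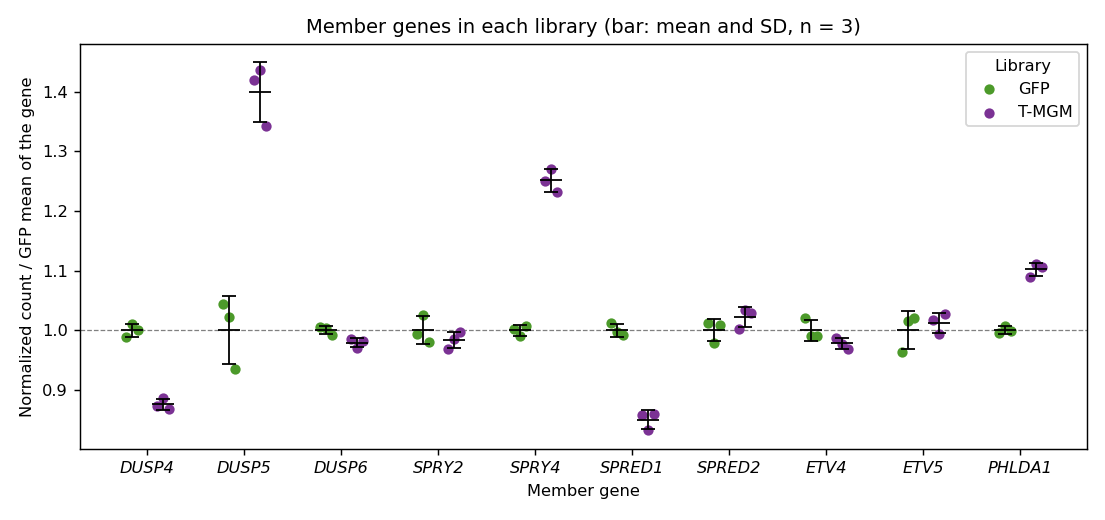
Normalized count of each member gene (x axis) in each library, divided by the GFP mean of that gene (y axis, no unit); green points are GFP and purple points T-MGM libraries, and bars give the mean and SD (n = 3). The T-MGM points lie above all GFP points for DUSP5, SPRY4 and PHLDA1 and below all of them for DUSP4 and SPRED1. They also lie below, by little, for DUSP6 and ETV4, which did not pass. These and the remaining genes stay near 1. In TPM, which is not plotted here, PHLDA1 did not rise.

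The dual-specificity phosphatases were taken first. DUSP4, DUSP5 and DUSP6 all dephosphorylate MAP kinases, the first 2 of them in the nucleus and DUSP6 in the cytoplasm, where it is selective for ERK. DUSP5 (ENSG00000138166.6; chromosome 10, 110497907 to 110511533, GRCh38) had 1885, 1845 and 1689 normalized counts with GFP against 2565, 2594 and 2426 with T-MGM (replicates 1 to 3, here and for the other members). All T-MGM libraries were higher than all GFP libraries, from a mean of 1806 ± 103 to 2529 ± 89.8 (n = 3 per group, SD). This is a log2 fold change of 0.48 (SE 0.05, adjusted p 3.85e-25 by DESeq2), or 1.4-fold with 95% limits of 1.31 to 1.49, the largest rise among the 10.

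DUSP4 (ENSG00000120875.9; chromosome 8, 29333064 to 29350684) moved the other way. It had 14542, 14859 and 14709 normalized counts with GFP against 12839, 13021 and 12755 with T-MGM, which did not overlap. DUSP4 fell by 0.19 on the log2 scale (SE 0.02, adjusted p 2.56e-26 by DESeq2), a change of -12.5%. DUSP6 (ENSG00000139318.8; chromosome 12, 89347235 to 89352501), the member most often used as a readout of ERK, had 11745, 11724 and 11600 with GFP against 11514, 11347 and 11482 with T-MGM. The groups did not overlap, but the log2 fold change of -0.03 (SE 0.02, adjusted p 0.208 by DESeq2) did not pass, with 95% limits of -0.07 to 0.01. In the annotation 28.6% of the exonic bases of DUSP6 lie under an antisense transcript, which had 48 to 104 counts per library where DUSP6 had 9794 to 15559.

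The ratio of 2 genes within a library does not depend on how libraries are scaled, and it was used to set relatives side by side. These pairs were chosen after the values were seen, and 5 were computed. The log2 ratio of DUSP5 to DUSP4 counts was -3.03 ± 0.09 in GFP and -2.35 ± 0.04 in T-MGM libraries (n = 3 per group, SD), a difference of 0.68 that held in all 3 T-MGM libraries. That of DUSP4 to DUSP6 went from 0.33 ± 0.02 to 0.17 ± 0.03 (n = 3 per group, SD), a difference of -0.16. Each had a 2-sided exact permutation p of 0.1 (0.125 after Benjamini-Hochberg adjustment over the 5 ratios), which is the smallest p that 3 against 3 libraries allow.

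Sprouty proteins are membrane-associated inhibitors of receptor signalling to RAS and RAF. SPRY4 (ENSG00000187678.9; chromosome 5, 142310427 to 142326455) had 29575, 29220 and 29731 normalized counts with GFP against 36907, 37501 and 36365 with T-MGM. It stood higher in each T-MGM library than in any GFP library. The means were 29509 ± 261 and 36924 ± 568 (n = 3 per group, SD), a log2 fold change of 0.32 (SE 0.01, adjusted p 2.14e-105 by DESeq2), or 1.25-fold with 95% limits of 1.23 to 1.28. SPRY4 had the smallest adjusted p of the 10.

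SPRY2 (ENSG00000136158.12; chromosome 13, 80335976 to 80341126) had 4955, 5119 and 4894 normalized counts with GFP against 4834, 4914 and 4975 with T-MGM. These ranges overlapped, and the log2 fold change of -0.02 (SE 0.03, adjusted p 0.571 by DESeq2) had 95% limits of -0.08 to 0.03. Within libraries, the log2 ratio of SPRY4 to SPRY2 was 2.56 ± 0.05 in GFP and 2.91 ± 0.04 in T-MGM (n = 3 per group, SD). The difference of 0.35 had an exact permutation p of 0.1, again the smallest possible.

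SPRED proteins bind RAF and bring neurofibromin, the RAS inactivator, to the membrane. SPRED1 (ENSG00000166068.13; chromosome 15, 38252836 to 38357249) had 9297, 9147 and 9101 normalized counts with GFP against 7880, 7639 and 7898 with T-MGM. All 3 T-MGM libraries were lower. SPRED1 fell by 0.23 on the log2 scale (SE 0.02, adjusted p 2.3e-25 by DESeq2), a change of -14.9%, but with offsets for GC content and transcript length the log2 fold change was -0.07 (adjusted p 0.00437 by DESeq2). SPRED2 (ENSG00000198369.10; chromosome 2, 65310851 to 65432637) had 11181, 10824 and 11161 with GFP against 11083, 11426 and 11372 with T-MGM, with overlapping ranges. Its log2 fold change was 0.03 (SE 0.02, adjusted p 0.243 by DESeq2, 95% limits -0.01 to 0.07). The log2 ratio of SPRED2 to SPRED1 moved from 0.27 ± 0.03 to 0.53 ± 0.04 (n = 3 per group, SD; exact permutation p of 0.1, the smallest possible), with no correction for the lower GC content of SPRED1.

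ETV4 and ETV5 are ETS transcription factors of the PEA3 group, induced by ERK and released from repression when Capicua (CIC) leaves their promoters. ETV4 (ENSG00000175832.13; chromosome 17, 43527844 to 43579620) had 8114, 7880 and 7873 normalized counts with GFP against 7856, 7771 and 7710 with T-MGM. The groups lay close without overlapping, and the log2 fold change of -0.03 (SE 0.02, adjusted p 0.272 by DESeq2) did not pass. ETV4 did pass downwards with offsets for GC content and length (-0.17, adjusted p 5.35e-14 by DESeq2), with total-count scaling (-0.09) and in log2(TPM + 1) (-0.22, adjusted p 0.00242 by limma). ETV5 (ENSG00000244405.8; chromosome 3, 186046314 to 186110318) had 6744, 7108 and 7143 with GFP against 7117, 6954 and 7188 with T-MGM. The GFP range took in most of the T-MGM values, and the log2 fold change was 0.02 (SE 0.03, adjusted p 0.647 by DESeq2, 95% limits -0.03 to 0.07). The log2 ratio of ETV4 to ETV5 differed by -0.05 between groups (0.18 ± 0.07 against 0.14 ± 0.03, n = 3 per group, SD; exact permutation p of 0.5). ETV4 overlaps 68 exonic bases with DHX8 on the opposite strand, and ETV5 overlaps 164 with DGKG on the same strand.

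PHLDA1 encodes a pleckstrin homology-like protein that is induced by ERK and counted in common signatures of MEK inhibitor response. PHLDA1 (ENSG00000139289.13; chromosome 12, 76025447 to 76031776) had 32790, 33212 and 32907 normalized counts with GFP against 35916, 36621 and 36485 with T-MGM. Each T-MGM library was above each GFP library, by little. The log2 fold change was 0.14 (SE 0.01, adjusted p 3.29e-24 by DESeq2), or 1.1-fold with 95% limits of 1.08 to 1.12. In the deposited TPM values no such rise was seen (-0.01; adjusted p 0.844 by limma), which is taken up with the scalings. PHLDA1-AS1 on the opposite strand covers 9.4% of its exonic bases and had 11 to 27 counts per library.

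Promoter sequences are given for genes with different behaviour: SPRY4 and PHLDA1, which rose, SPRED1, which fell, and DUSP6, which did not pass. Each is a RefSeq window of 250 bases before to 50 after a start site on GRCh38.p14, read 5′ to 3′ on the minus strand except for SPRED1, which is on the plus strand. The windows are chr5:142324198-142324497 for SPRY4, chr12:76031727-76032026 for PHLDA1, chr15:38252586-38252885 for SPRED1 and chr12:89352452-89352751 for DUSP6. Capitals mark a match to one of 7 motifs searched on both strands.
SPRY4 promoter: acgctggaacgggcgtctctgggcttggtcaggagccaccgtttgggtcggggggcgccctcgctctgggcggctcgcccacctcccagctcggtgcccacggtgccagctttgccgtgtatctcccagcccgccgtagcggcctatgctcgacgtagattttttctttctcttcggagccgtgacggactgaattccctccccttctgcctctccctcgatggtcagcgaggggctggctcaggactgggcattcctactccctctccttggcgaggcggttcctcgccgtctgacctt
PHLDA1 promoter: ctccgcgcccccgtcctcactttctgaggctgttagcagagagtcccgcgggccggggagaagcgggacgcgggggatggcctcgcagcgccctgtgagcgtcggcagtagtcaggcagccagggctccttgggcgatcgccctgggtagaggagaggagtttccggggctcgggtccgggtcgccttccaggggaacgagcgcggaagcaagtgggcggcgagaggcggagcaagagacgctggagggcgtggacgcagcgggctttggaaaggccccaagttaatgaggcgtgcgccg
SPRED1 promoter: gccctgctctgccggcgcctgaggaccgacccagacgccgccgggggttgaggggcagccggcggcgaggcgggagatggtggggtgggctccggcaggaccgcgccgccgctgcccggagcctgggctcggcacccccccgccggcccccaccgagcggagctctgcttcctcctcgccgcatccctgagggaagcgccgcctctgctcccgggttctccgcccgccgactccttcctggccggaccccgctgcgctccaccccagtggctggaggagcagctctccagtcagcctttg
DUSP6 promoter: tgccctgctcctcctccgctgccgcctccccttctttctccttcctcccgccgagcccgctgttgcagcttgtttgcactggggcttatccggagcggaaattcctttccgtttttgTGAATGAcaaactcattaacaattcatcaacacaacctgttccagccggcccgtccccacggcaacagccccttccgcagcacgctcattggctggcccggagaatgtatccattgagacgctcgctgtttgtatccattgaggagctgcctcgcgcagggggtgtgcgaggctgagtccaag

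The motifs were TGAATGA and TGAATGG, each the first 7 letters of an octamer bound by CIC, CCGGAAG for ETS factors, the E-boxes CACGTG and CATGTG bound by MITF, TGCTGAC from the MAF recognition element, and TGACTCA for AP-1. The search covered the 6 members with a window in the table, which are those 4, SPRY2 and SPRED2. Only 2 matches were found. DUSP6 held TGAATGA starting 133 bases before the start site, a motif present in 4.01% of 35116 promoters. The next base in the window is C, and the full CIC octamer was not searched for. SPRED2 held TGACTCA starting 6 bases before the start site of its window (chr2:65366729-65367028), a motif found in 4.95%. This window lies inside the gene, whose 5′ end on the minus strand is annotated at 65432637. The windows of SPRY2 and SPRY4 likewise use start sites inside the annotated gene. The E-boxes occurred in 7.26% (CACGTG) and 11.1% (CATGTG) of promoters, TGCTGAC in 4.19%, TGAATGG in 3.2% and CCGGAAG in 10.3%, but not in these 6 windows. The windows differed in base composition, from 58.3% GC in DUSP6 and 65% in SPRY4 to 69.3% in PHLDA1 and 76.3% in SPRED1.

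Levels of different genes were compared in TPM, which is scaled for transcript length. In GFP the order was SPRY4 at 148 ± 0.6 TPM, PHLDA1 at 115 ± 1.4, ETV4 at 102 ± 2.68, DUSP6 at 91.6 ± 0.8, ETV5 at 73.7 ± 11.6, SPRED2 at 54.7 ± 0.29, DUSP4 at 54.6 ± 0.92, SPRY2 at 45.2 ± 1.09, SPRED1 at 33.2 ± 0.92 and DUSP5 at 15.3 ± 0.83 (SD, n = 3). Only SPRED2 overlapped with the next gene in that order, DUSP4. The order was the same in T-MGM, from SPRY4 at 170 ± 3.8 TPM to DUSP5 at 19.4 ± 0.95 (SD, n = 3). There ETV4 (85.68 to 90.56 TPM) and DUSP6 (82.46 to 88.47) overlapped, and SPRED2 (51.29 to 54.82) and DUSP4 (42.15 to 44.19) no longer did. Thus the gene that rose most, DUSP5, stayed the least abundant of the 10, and the 2 highest, SPRY4 and PHLDA1, were among the 3 that rose in counts, PHLDA1 without a rise in TPM. ETV5 was unusual in that its GFP libraries ran from 62.36 to 85.52 TPM although its normalized counts were 6744 to 7143 there.

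**Figure D2:**
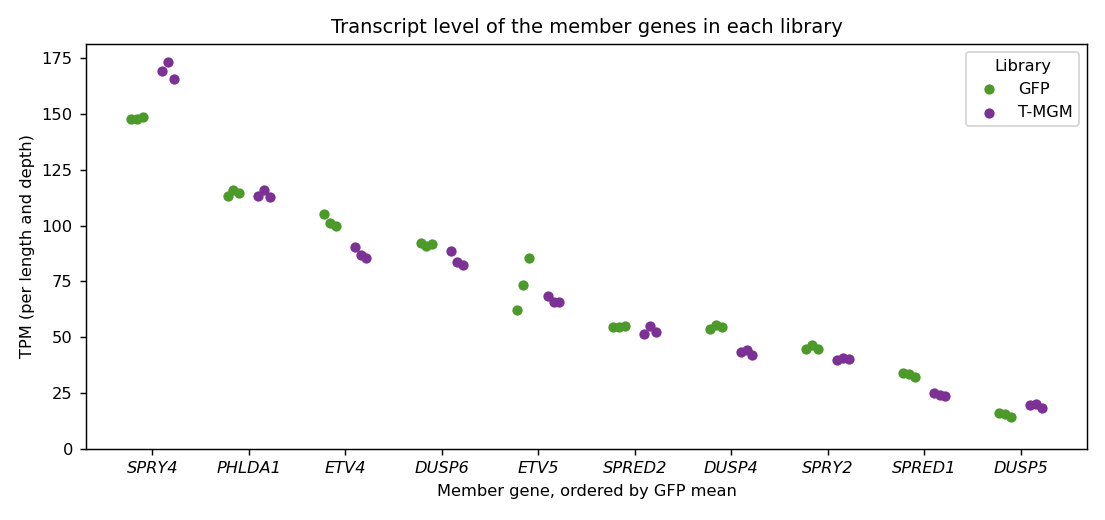
TPM of each member gene (y axis, starting at 0) in each library, with genes ordered by their GFP mean on the x axis; green points are GFP and purple points T-MGM libraries. SPRY4 is highest at 148 TPM in GFP and 170 in T-MGM, DUSP5 lowest at 15.3 and 19.4, and the GFP points of ETV5 spread from 62.36 to 85.52.

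Changes of this size depend on how the libraries are scaled, so the same 10 were followed through other scalings. Among genes that averaged 50 or more normalized counts, the median log2 fold change was -0.01 in the reported fit, -0.06 with total-count scaling and -0.13 in log2(TPM + 1). The numbers of members higher and lower were 3 and 2 as reported, 3 and 5 with total counts, 2 and 5 in log2(TPM + 1), and 3 and 3 after offsets for GC content and transcript length. In log2(TPM + 1) itself DUSP5 was at 0.32, SPRY4 at 0.19, PHLDA1 at -0.01, DUSP4 at -0.33 and SPRED1 at -0.44. Relative to the median gene, these TPM changes were 0.45 for DUSP5, 0.33 for SPRY4, 0.12 for PHLDA1, -0.20 for DUSP4 and -0.31 for SPRED1, with the other 5 between -0.085 and 0.082. DUSP5, SPRY4, DUSP4 and SPRED1 passed in the reported direction in every alternative, also with each library left out in turn. PHLDA1 passed in all but the 3 TPM fits, and its TPM values were 113.12, 115.91 and 114.51 with GFP against 113.16, 115.98 and 112.68 with T-MGM. SPRED1 showed its largest difference on this scale, with 34.11, 33.33 and 32.28 TPM against 25.03, 24.05 and 23.69. The summed TPM of the 10 genes was 723.6 to 740.9 with GFP and 689.2 to 709.6 with T-MGM.

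**Figure D3:**
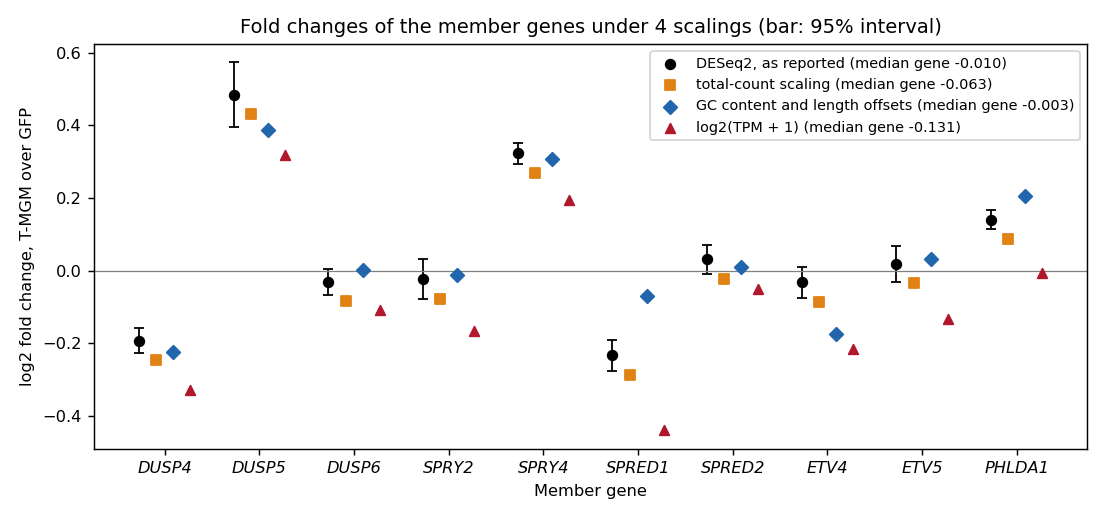
Log2 fold change of each member gene, T-MGM over GFP (y axis), as reported by DESeq2 (black, with 95% limits), with total-count scaling (orange), with GC content and length offsets (blue) and in log2(TPM + 1) (red); the legend gives the median of genes that averaged 50 or more normalized counts. DUSP5 and SPRY4 are above 0 and DUSP4 and SPRED1 below 0 in all 4 scalings, and PHLDA1 is at -0.01 in TPM.

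Base composition moved with the fold changes across the transcriptome. Genes in the decile of lowest transcript GC content had a median log2 fold change of -0.16 and those in the decile of highest GC content 0.15. SPRED1, whose longest transcript has 36.3% GC, fell into the lowest decile, and with offsets for GC content and length its log2 fold change was -0.07 (adjusted p 0.00437 by DESeq2) in place of -0.23. ETV4, at 60.6% GC, lay in decile 9, with a median of 0.14, and with the offsets it fell by 0.17 (adjusted p 5.35e-14 by DESeq2). PHLDA1, at 43.0% GC, was at 0.21 with the offsets, larger than as reported. DUSP5 (0.39), SPRY4 (0.31) and DUSP4 (-0.22) kept their calls with the offsets.

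**Figure D4:**
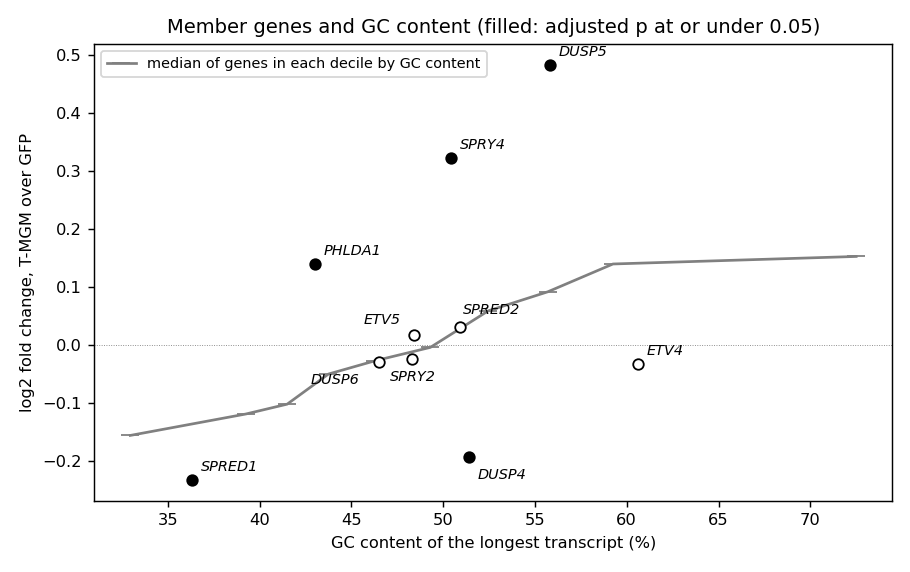
Log2 fold change of the member genes (y axis) against the GC content of their longest transcript in percent (x axis); filled points passed an adjusted p of 0.05, and the grey line joins the medians of genes in each decile by GC content, from -0.16 to 0.15. SPRED1 at 36.3% GC and ETV4 at 60.6% lie below the median of their decile by 0.08 and 0.17, and DUSP5, SPRY4 and PHLDA1 lie above theirs.

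Members were also set beside the genes around them. Of the members that passed, DUSP5 (0.48) lay among 90 genes within 10 Mb whose median log2 fold change was -0.01, SPRY4 (0.32) among 143 with 0.04, PHLDA1 (0.14) among 46 with -0.13, DUSP4 (-0.19) among 93 with 0.08 and SPRED1 (-0.23) among 119 with -0.05. A gene picked because it passed tends to lie further from 0 than a median of many genes, so these distances test nothing. With GC content and length offsets the neighbour medians were -0.003, 0.095, -0.004, 0.086 and -0.016, in the same order. DUSP6 (-0.03) had neighbours at -0.14 and SPRY2 (-0.02) at -0.16, and both medians were closer to 0 with GC content and length offsets (-0.01 and -0.05).

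The paralogues of the members also went both ways. Of 13 listed relatives, 12 had an adjusted p, and 6 were higher and 3 lower, against 19.2% of all genes tested in each direction. The 75% that passed compare with 38.4% of all genes tested and 73.4% of genes that averaged 2000 or more normalized counts. Most of the relatives averaged fewer, so the last share is not matched to their level. With GC content and length offsets the split was 5 to 4 and in log2(TPM + 1) it was 3 to 2. The phosphatase DUSP9, which acts on ERK in the cytoplasm, was the only one over 2-fold. It had 25.2, 27.1 and 6.85 normalized counts with GFP against 83, 114 and 93 with T-MGM, a log2 fold change of 2.29 (SE 0.34, adjusted p 7.63e-11 by DESeq2) at a low level. It was under 2-fold as a shrunken estimate (0.89) and in log2(TPM + 1) (0.64), but at 1.81 in log2 of TPM plus 0.1. Its mean TPM was 0.18 with GFP and 0.84 with T-MGM, so the added constant weighs heavily. DUSP10, which prefers the p38 and JNK kinases, fell by 0.53 (SE 0.04, adjusted p 1.27e-38 by DESeq2), from 2656 ± 56.6 to 1843 ± 39.2 normalized counts (n = 3 per group, SD). SPRY1 fell by 0.48 (SE 0.05, adjusted p 1.39e-20 by DESeq2) while SPRY4 rose. DUSP7, another ERK phosphatase, rose by 0.34 and ETV1, the third PEA3 factor, by 0.31 on the log2 scale. In the 3 TPM fits ETV1 did not pass (adjusted p 0.0553 to 0.163 by limma), nor did DUSP7 in the one without a minimum (adjusted p 0.0728 by limma). DUSP1 and SPRED3 also rose (0.59 and 0.62), at 222 and 204 mean normalized counts in GFP.

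Further ERK outputs outside these families, from a list drawn up with earlier results of these data known, were mostly higher. Of 20 listed genes, 14 were higher and 2 lower, with a median log2 fold change of 0.31, against -0.003 for all genes tested. The 80% that passed compare with 38.4% of all genes tested (19.2% in each direction) and 73.4% of those that averaged 2000 or more normalized counts. Some of the 20 averaged fewer, so the last share is not matched to their level. With GC content and length offsets 11 were higher and 4 lower, and in log2(TPM + 1), where the median gene was at -0.13, 7 and 5. CCND1, the cyclin D1 gene that couples ERK to the cell cycle, went from 48221 ± 511 to 66080 ± 696 normalized counts (n = 3 per group, SD), a log2 fold change of 0.45 (SE 0.01, adjusted p 6.42e-268 by DESeq2). FOSL1, an AP-1 subunit that accumulates under sustained ERK activity, rose by 0.66 (SE 0.02, adjusted p 1.17e-234 by DESeq2). The early gene EGR2 rose from 347 ± 13.6 to 743 ± 56.7 normalized counts (n = 3 per group, SD), a log2 fold change of 1.09 (SE 0.09), while EGR3 and the cytokine LIF fell by 0.32 and 0.25. EPHA4, a receptor of this signature, had 4 to 8 counts in GFP and 14 to 44 in T-MGM libraries, and its log2 fold change of 1.55 (adjusted p 0.0382 by DESeq2) did not pass with the replicate number as a block (1.45; adjusted p 0.13 by DESeq2), without independent filtering (adjusted p 0.0644 by DESeq2), without T-MGM replicate 3 (0.995; adjusted p 0.374 by DESeq2), without GFP replicate 2 or without GFP replicate 3 (adjusted p 0.101 and 0.137 by DESeq2). MYC was at 0.02 and did not pass (adjusted p 0.599 by DESeq2).

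The kinases and adaptors of the cascade itself went both ways. Of 27 listed genes, 8 were higher and 10 lower, all under 2-fold, with a median log2 fold change of -0.003. The 66.7% that passed lie above the 38.4% of all genes tested and below the 73.4% of those that averaged 2000 or more normalized counts. Some of the 27 averaged fewer, so the last share is not matched to their level. The split was 5 to 14 with total counts, 7 to 6 with GC content and length offsets and 0 to 10 in log2(TPM + 1). MAPK3, which encodes ERK1, rose by 0.22 (SE 0.05, adjusted p 0.000101 by DESeq2). In TPM its groups overlapped (18.5 to 20.99 with GFP, 19.84 to 23.44 with T-MGM). The exchange factor SOS2 fell by 0.35. ARAF rose by 0.28, but was at 0.15 with GC content and length offsets and did not pass in the 3 TPM fits (adjusted p 0.0514 to 0.0591 by limma). BRAF fell by 0.15 on the log2 scale, and in TPM its groups overlapped (6.81 to 8.02 with GFP, 5.78 to 7.07 with T-MGM). Neither MAPK3 nor BRAF was followed singly through the alternatives.

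Among 11 transcription factors that act on ERK outputs, 5 were higher and 3 lower. This is 72.7% against 38.4% of all genes tested and 73.4% of those that averaged 2000 or more normalized counts. Some of the 11 averaged fewer, so the last share is not matched to their level. The split was 5 to 5 with GC content and length offsets, 3 to 3 with total counts and 1 to 4 in log2(TPM + 1). CIC, which represses ETV4, ETV5, DUSP6 and SPRY4 until ERK inactivates it, averaged 3527 ± 132 normalized counts with GFP against 4278 ± 160 with T-MGM (n = 3 per group, SD). Its log2 fold change of 0.28 (SE 0.04, adjusted p 1.4e-14 by DESeq2) was 0.02 in log2(TPM + 1) and did not pass there (adjusted p 0.852 by limma). With GC content and length offsets CIC was at 0.103 (adjusted p 0.00969 by DESeq2). With the replicate block as well it was at 0.104 and did not pass (adjusted p 0.0628 by DESeq2). ETV3, an ETS repressor, fell by 0.26 and ETS2 by 0.19. ELK3 rose by 0.18 as reported, but its sign turned in log2(TPM + 1) (-0.004).

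**Figure D5:**
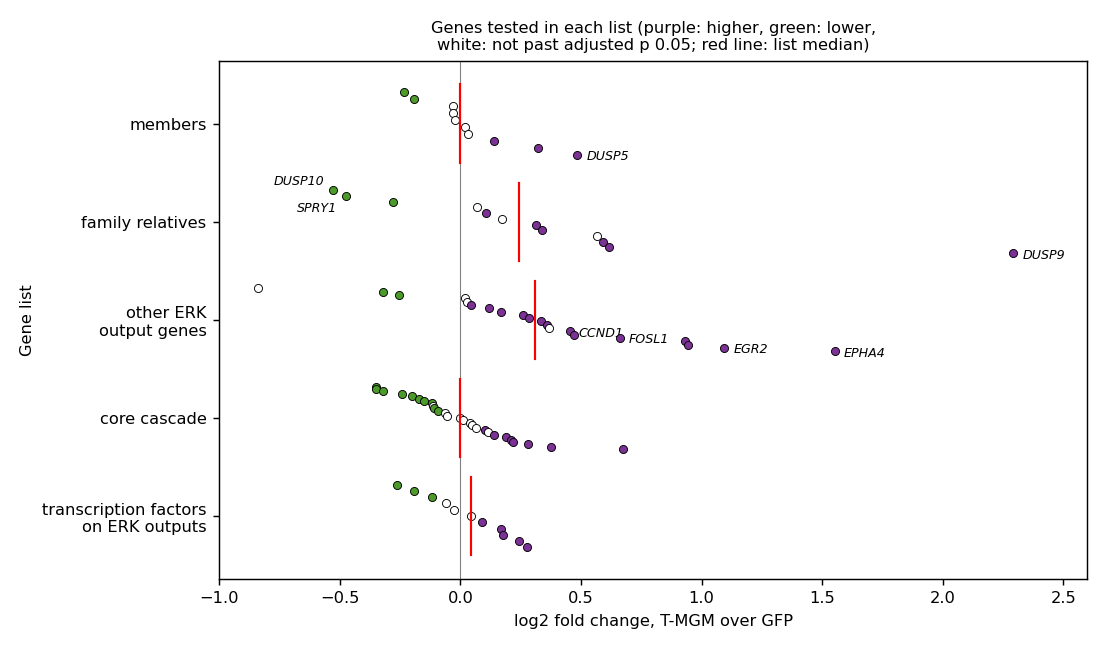
Log2 fold change, T-MGM over GFP (x axis), of every gene with an adjusted p in the members and in 4 lists of related genes (y axis); purple points are higher and green points lower at an adjusted p at or under 0.05, white points did not pass, and red lines are list medians. The members and the core cascade are centred at -0.003, while the family relatives (0.24) and other ERK output genes (0.31) have higher medians. All lists were drawn up with earlier results of these data known.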

How the data were processed

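RNA was sequenced from 3 GFP and 3 T-MGM samples of WM164, grouped and numbered by sample title. The authors trimmed reads with cutadapt 1.8.1, aligned them to GRCh38 with STAR 2.7.7a and assigned unique alignments to genes with featureCounts, and the deposited counts are raw. The authors also deposited TPM values made with RSEM 1.3.0. Versions are from the submitters' processing notes, and the annotation release was not given in the sources used here. The labels name a kit without strand information and the study's methods a stranded one, so reads of overlapping genes are uncertain.

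All genes were fitted together in DESeq2 1.42.0 (R 4.3.3; group as the only term, median-of-ratios size factors, 2-sided Wald test, Benjamini-Hochberg adjustment over all genes tested), with a threshold of adjusted p at or under 0.05 and with changes over 2-fold counted apart, as in the study's methods. Positions, overlaps, transcript GC content and length are from GENCODE 44 on GRCh38 (99.4% of gene identifiers matched). Promoter windows are from RefSeq (GRCh38.p14), matched by symbol for 6 of 10 members. Protein sequences were not analysed here.

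Named are the 10 members and, of each other list, genes over 2-fold and the 4 with the largest absolute Wald statistic, some of which are not reported here. DUSP1, SPRED3, EGR3, MYC, MAPK3 and BRAF were added after their values were seen and were not followed singly through the alternatives. The members and lists were chosen with earlier results of these data known. Alternatives were edgeR 4.0.16, other scalings (TMM, total counts), 10 counts in 3 libraries, no independent filtering, a block for the replicate number, each library left out, limma 3.58.1 with a trend on log2 of TPM plus 1 or 0.1 (minimum TPM of 0.5 in 3 libraries, or none), lowess offsets (span 0.3) for GC content and length, and shrunken fold changes. Totals without the 100 most abundant genes, and the ratios of relatives, were added after the data were examined. The steps were tested on simulated counts.

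Replicates of a group differed by more than counting noise (chi-square per gene of 2.87 to 5.46 over genes with at least 50 counts, where noise alone gives 1). Each library was kept as its own sample. Such spread may be technical, so it cannot tell whether the libraries came from separate cultures.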

Additional observations from a re-analysis of the deposited data

How the results depend on the processing

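Of 190 values of the 10 members under the alternatives, 163 kept their direction and their side of the threshold, 13 passed where the reported value did not and 14 turned sign; those 14 were of genes that did not pass as reported or of PHLDA1. The number of members past an adjusted p of 0.05, 5 as reported, was 8 with total-count scaling and 5 to 7 in the other alternatives; it was 5 in each fit without one library, and none was over 2-fold in any alternative. Sign turned for SPRED2 with total-count scaling (-0.022) and in the TPM fits (-0.049, -0.05 with a pseudocount of 0.1, -0.049 without a minimum), for ETV5 likewise (-0.035; -0.132, -0.133 and -0.132), for PHLDA1 in the TPM fits (-0.007 in each) and for DUSP6 with GC content and length offsets (0.003, also with the replicate block). ETV5 ranged from -0.008 to 0.034 when one library was left out and was below 0 without GFP replicate 1. ELK3 turned in the TPM fits (-0.004, -0.005 and -0.004). ETV4 passed downwards with total counts, offsets and in the TPM fits, SPRY2 with total counts and in the TPM fits, and DUSP6 with total counts and in 2 of the 3 TPM fits. Of 340 values of the other named genes, 319 kept direction and side, 18 missed the threshold and 3 turned sign. In the 3 TPM fits the numbers past the threshold were 5, 5 and 4 family relatives (9 as reported), 10, 10 and 9 genes of the core cascade (18 as reported) and 5, 5 and 2 transcription factors (8 as reported); the cause was not tested. Without one library the transcription factors ranged from 5 (without GFP replicate 1) to 8. With the replicate number as a block, 5 members, 9 family relatives, 13 further ERK outputs, 15 core genes and 7 transcription factors passed; replicate numbers did not pair the libraries, since the same-number correlations of deviations from the group means were -0.007, -0.058 and 0.029. Depth limits EPHA4 and DUSP9, which had few counts in GFP.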
